A study of Mus musculus with 24 samples.

Results

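The genes described here are 41 members of 2 linked systems, the integrated stress response and the supply of amino acids, taken as a fixed list of symbols: 10 response regulators, 10 amino acid and one-carbon enzymes, 9 amino acid transporters and 12 cytosolic tRNA synthetases. All 41 were found among the 20673 gene symbols counted. The list was chosen with earlier results of these data known. Shares of members set beside shares of all genes therefore describe these data and are no independent test. Their RNA was measured by RNA sequencing in 4 types of activated mouse immune cell, each taken from C57BL/6J mice with normal Mir155 (WT) or lacking it (miR-155 KO), with 3 libraries in each of the 8 groups. The B cells were splenic and were activated with lipopolysaccharide (LPS) at 25 ug/ml and interleukin 4 at 6.5 ng/ml. The dendritic cells were CD11c+ spleen cells from mice that carried a B16 melanoma secreting Flt3 ligand, which expands dendritic cells, and were activated with LPS at 100 ng/ml and GM-CSF at 20 ng/ml. The macrophages came from the peritoneum after thioglycollate and were activated with LPS at 100 ng/ml. The T cells were sorted as CD4+CD25-CD44- and were activated with beads coated with antibodies to CD3 and CD28. Times of activation and ages of the animals were not given in the sources used here. The series describes the libraries of a group as sequencing replicates, and nothing says that they came from separate animals, so each p-value measures only how much such libraries vary, and that variation may be technical.

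When eIF2alpha is phosphorylated by kinases that sense amino acid shortage, unfolded protein, haem shortage or double-stranded RNA, translation slows overall but the mRNA of Atf4 is translated more. ATF4 protein then binds C/EBP-ATF response elements, often with a C/EBP partner, and raises the transcription of genes for amino acid synthesis and import and for charging tRNA. Because much of this control acts on translation of ATF4, the level of Atf4 mRNA does not have to follow the activity of the protein. In activated lymphocytes amino acid uptake and serine and one-carbon metabolism are known to rise during growth, and in macrophages cystine uptake through Slc7a11 is known to respond to LPS.

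Total gene counts per library ran from 7428821 to 14219823. The fitted variation between libraries of a group was a coefficient of variation of 5.78% in B cells, 6.08% in T cells, 9.64% in dendritic cells and 17.7% in macrophages, where the WT libraries numbered 2 and 3 were the least alike of all replicate pairs. Mir155 itself is not among the counted symbols, so the deleted gene gives no check of the KO label. Summed marker genes were highest in the labelled cell types: B cell markers summed to means of 3022 (KO) and 3081 (WT) CPM (read counts scaled to library size) in B cells, T cell markers to 999.2 and 1036 in T cells, macrophage markers to 12860 and 16120 in macrophages, and dendritic cell markers to 14930 and 11400 in dendritic cells. That last sum is carried by Fscn1, Ccr7 and Flt3. Itgax, the gene of the CD11c protein on which the dendritic cells were isolated, was at means of 29.0 (KO) and 31.3 (WT) CPM in dendritic cells and higher, at 394 and 262 CPM, in macrophages, and Xcr1 was at 0.723 and 1.68 CPM in dendritic cells. As RNA came from bulk cultures, fewer cells of a type and less RNA per cell cannot be told apart. CPM here are scaled by the trimmed mean of M-values over all 24 libraries, log2 fold changes are KO minus WT unless another order is given, and a gene was called when edgeR's quasi-likelihood test gave a Benjamini-Hochberg adjusted p under 0.05 over all genes tested. Every adjusted p below comes from that test.

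The sequence through which miR-155 recognises its targets is its seed, bases 2 to 8 from the 5′ end, shown in capitals below because it defines the sites searched in the 3′ UTRs of the members. Its RefSeq position is chr16:84714143-84714165 on the plus strand of GRCm38.p6. An 8mer site here is AGCATTAA, a 7mer-m8 site AGCATTA and a 6mer GCATTA. Of the 41 members, 4 (9.76%) had an 8mer or 7mer in the 3′ UTR of their annotated transcript, against 2674 of 20043 genes (13.3%), so such sites were no more frequent among the members than among all genes. Those 4 sites are printed with 11 bases on either side, 5′ to 3′ along the mRNA and with the site in capitals. They lie at chr5:148328711-148328718 (minus strand) in Slc7a1, chr15:96687929-96687936 (minus) in Slc38a2, chr3:108424878-108424885 (minus) in Sars and chr4:129219475-129219481 (plus) in Yars, all on GRCm38. Slc38a1 held only a 6mer, and Slc38a2 also held a 6mer besides its 8mer.
mmu-miR-155-5p: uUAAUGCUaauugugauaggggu
Slc7a1 8mer: gttggctcccaAGCATTAAggaatcttaag
Slc38a2 8mer: atttatagagcAGCATTAAtccattaaagc
Sars 8mer: ttaagggttgcAGCATTAAgaaggttaacc
Yars 7mer-m8: tgtggttcattAGCATTAggttcacgcta

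Promoters were searched for TGATGNAA on either strand, the core shared by C/EBP-ATF response elements, in the RefSeq window from 250 bases before to 50 bases after the start site. A promoter entry was found for 31 members, and 12 of them (38.7%) held the motif, against 662 of 16529 genes with an entry (4.01%). The 12 were Atf3, Trib3 and Chac1 among the regulators, Asns and Pycr1 among the enzymes, Slc7a11 and Slc1a4 among the transporters, and Aars, Gars, Iars, Tars and Yars among the synthetases. Slc7a11 and Aars each had 2 matches. The matches below are those of Asns, Slc7a11, Chac1, Trib3 and Yars, each printed along the gene's strand with the match in capitals. Of these genes, Chac1 and Trib3 were called in no KO comparison. Phgdh, Shmt2 and Slc38a2 held no match, and Slc7a5 had no promoter entry. On GRCm38.p6 they lie at chr6:7693225-7693232 (Asns, minus strand), chr3:50443672-50443679 and chr3:50443653-50443660 (Slc7a11, minus), chr2:119351049-119351056 (Chac1, plus), chr2:152344039-152344046 (Trib3, minus) and chr4:129189906-129189913 (Yars, plus). Measured from the start site, the Asns match covers -23 to -16, the Slc7a11 matches -66 to -59 and -47 to -40, and the Chac1 match -193 to -186. A match describes letters in a window and does not show that a factor binds there.
Asns: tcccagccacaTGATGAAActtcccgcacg
Slc7a11 first match: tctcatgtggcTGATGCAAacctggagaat
Slc7a11 second match: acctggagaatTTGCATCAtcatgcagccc
Chac1: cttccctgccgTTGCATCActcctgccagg
Trib3: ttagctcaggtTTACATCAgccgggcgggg
Yars: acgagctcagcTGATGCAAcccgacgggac

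In macrophages lacking miR-155, 4 of 38 members tested (10.5%) rose and none fell, where 0.885% of all genes were called. In dendritic cells 2 rose and 8 fell of 36 tested (27.8%), near the 21.6% of all genes called there. The macrophage calls went to 0 without any 1 of 4 single libraries, where at most 1 of all genes was called, as given below. In B cells and in CD4 T cells the transporter gene Slc38a2 was the single member called, and it rose in both. Of the 41 members, 34 passed the filter on low counts in all 4 cell types, and 30 were called in no KO comparison. Phgdh and Slc7a5 were called in both myeloid cell types, up in macrophages and down in dendritic cells. So was Asns, though in dendritic cells it had 8 to 30 counts a library and passed the filter through its WT libraries alone. Slc38a2 was called up in B cells, dendritic cells and T cells.

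**Figure D1:**
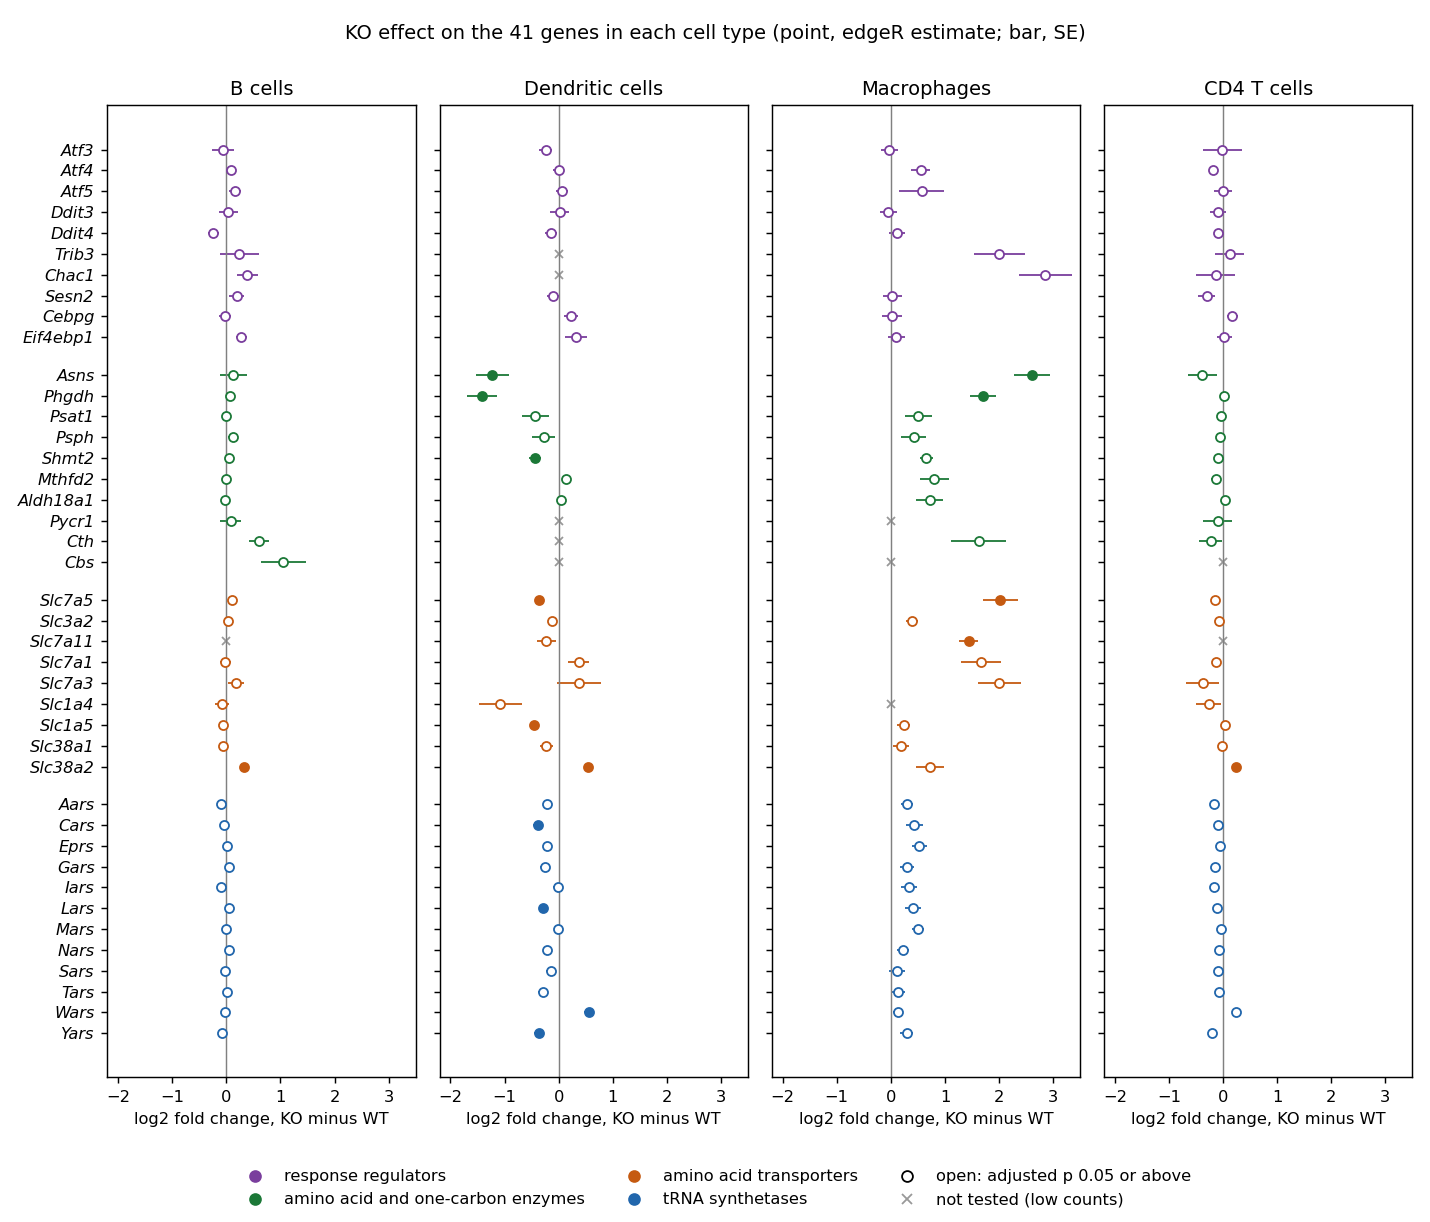
Log2 fold change (KO minus WT, x axis) of each of the 41 genes (y axis, grouped by role) in the 4 cell types; points are edgeR estimates, bars are standard errors, filled points have an adjusted p under 0.05 and crosses mark genes not tested. In macrophages 36 of 38 estimates lie above 0, and in dendritic cells 25 of 36 lie below 0.

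In KO macrophages Asns, which makes asparagine from aspartate and glutamine, was the called member with the largest change. Its level was 71.9, 53.1 and 31.3 CPM in the 3 KO libraries and 6.71, 8.05 and 11.3 CPM in the 3 WT libraries, a log2 fold change of 2.61 (SE 0.339, adjusted p = 0.037). Every KO library was above every WT library, although the KO libraries themselves differed by more than the WT libraries did. Phgdh, the first enzyme of serine synthesis from glycolysis, stood at 10.6, 10.5 and 10.0 CPM in KO and 4.54, 2.43 and 2.76 CPM in WT (log2 1.71, SE 0.243, adjusted p = 0.041). The other enzymes of serine synthesis, Psat1 (0.51, adjusted p = 0.33) and Psph (0.42, adjusted p = 0.39), were above 0 and not called. Shmt2 and Mthfd2, the mitochondrial folate enzymes that take one-carbon units from serine, had estimates of 0.65 (adjusted p = 0.058) and 0.80 (adjusted p = 0.18). Aldh18a1, in proline synthesis, had 0.72 and Cth, which makes cysteine from cystathionine, 1.62, neither called. Counts of Cth were 15, 3 and 15 in WT and 21, 36 and 35 in KO. It thus passed the filter on low counts in part through its KO libraries. All 8 enzymes tested had estimates above 0, with a median of 0.76 that includes Cth. The median over all 10730 genes tested was -0.02. Pycr1 and Cbs did not pass the filter in these cells.

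Among the transporters in macrophages, Slc7a11 and Slc7a5 rose. Slc7a11, the cystine carrier of the exchanger xCT, was already abundant in WT at 210, 232 and 308 CPM and stood at 705, 648 and 640 CPM in KO (log2 1.44, SE 0.169, adjusted p = 0.032). Slc7a5, the leucine carrier LAT1, was low in WT at 3.41, 2.43 and 6.43 CPM and reached 16.1, 15.1 and 17.7 CPM in KO (log2 2.02, SE 0.325, adjusted p = 0.049). Both genes thus had KO libraries close to each other and clear of WT. Slc3a2, the heavy chain that pairs with both carriers, had means of 961 CPM in KO and 751 CPM in WT (log2 0.38, adjusted p = 0.15). The carriers of arginine and lysine, Slc7a1 and Slc7a3, had estimates of 1.67 (adjusted p = 0.089) and 2.01 (adjusted p = 0.076) and were not called. Slc7a3 had 4, 8 and 7 counts in WT and 28, 14 and 27 in KO, so it passed the filter on low counts through its KO libraries. Slc1a5, Slc38a1 and Slc38a2, carriers of glutamine and small neutral amino acids, had 0.24, 0.19 and 0.72, again without a call. The 8 transporters tested all had estimates above 0, with a median of 1.08 that includes Slc7a3, and Slc1a4 did not pass the filter.

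Regulators and synthetases gave no call by edgeR in macrophages, although 3 of 10 regulators and 6 of 12 synthetases had an unadjusted p under 0.05, all with higher levels in KO, and DESeq2 called 2 of each. Chac1, which breaks down glutathione, had the highest estimate of any member, 2.86 (SE 0.486), at 2.51, 2.0 and 1.41 CPM in KO and 0.310, 0.0936 and 0.408 CPM in WT, but its adjusted p was 0.053. These levels are 23, 18 and 13 counts in KO and 3, 1 and 4 in WT, so Chac1 passed the filter through the group where it is high and its estimate is no support for a rise. Trib3, a pseudokinase induced by ATF4, had 2.01 (adjusted p = 0.10) and Atf4 itself 0.55 (adjusted p = 0.17). The stress genes Ddit3 (-0.04), Atf3 (-0.03), Sesn2 (0.03), Cebpg (0.01), Eif4ebp1 (0.10) and Ddit4 (0.11) had estimates near 0. Atf5 was at 55.8, 57.4 and 41.9 CPM in KO and 28.3, 61.0 and 17.2 CPM in WT, which overlapped, and was not called. The 12 tRNA synthetases had estimates from 0.11 for Sars to 0.53 for Eprs with a median of 0.30, all above 0 and none called.

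The 4 calls among 38 members tested in macrophages (10.5%) stand beside 95 of 10730 genes (0.885%) called in either direction, 59 (0.550%) up and 36 (0.336%) down. At an unadjusted p under 0.05, 21 members were higher and 0 lower, where 981 of all genes were higher and 928 lower. DESeq2 called 12 members higher and 0 lower, where it called 586 of 10730 genes. In 22 members all KO libraries lay above all WT libraries, and in none did they lie below, where 2636 of the 10730 genes (24.6%) had no overlap in one direction or the other. The unadjusted and no-overlap counts include Chac1, Slc7a3 and Cth, which passed the filter on low counts wholly or partly through their KO libraries. The libraries numbered alike deviated together in macrophages, and in a fit blocked by that number Trib3 (adjusted p = 0.029) and Chac1 (adjusted p = 0.043) were also called, the latter with the few WT counts given above, giving 6 members up and 0 down while 171 genes rose and 94 fell. The number of calls rested on single libraries. By edgeR none of the 38 or 39 members tested was called without KO replicate 1, 2 or 3 or without WT replicate 1. Over all genes, the calls in those refits were 0, 0, 1 and 0. Without WT replicate 3, 23 members rose, where 2746 of 10817 genes were called. Without both libraries numbered 3, 21 rose, where 1611 of 10736 genes were called. Estimates were steadier, with 34 to 37 members above 0 in each of the 6 refits that left out 1 library.

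The summed macrophage markers were lower in KO macrophages (12010 to 13640 CPM) than in WT (14470 to 17830 CPM), and the summed dendritic cell markers were higher (347.2 to 430.6 against 226.7 to 315.1 CPM), each with an exact permutation p of 0.1, the smallest that 3 against 3 libraries allow (two-sided). Single genes carried both sums. The macrophage sum followed C1qa (means of 688 CPM in KO and 1890 in WT), C1qb (431 and 1490) and C1qc (295 and 1190), while Csf1r (4130 and 3800), Mrc1 (552 and 460) and Mertk (200 and 187) had higher means in KO. The dendritic cell sum followed Itgax (394 and 262 CPM), while Flt3 (0.292 and 0.401), Ccr7 (1.46 and 3.89) and Fscn1 (3.39 and 4.12) had lower means in KO and Xcr1 was at 0 in both groups. Proliferation markers overlapped (532.6 to 794 CPM in KO, 351.1 to 787.8 CPM in WT), as did neutrophil markers (663.1 to 726.6 and 660.7 to 839.3 CPM). The part of these markers in the rise of the amino acid genes was not tested.

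**Figure D2:**
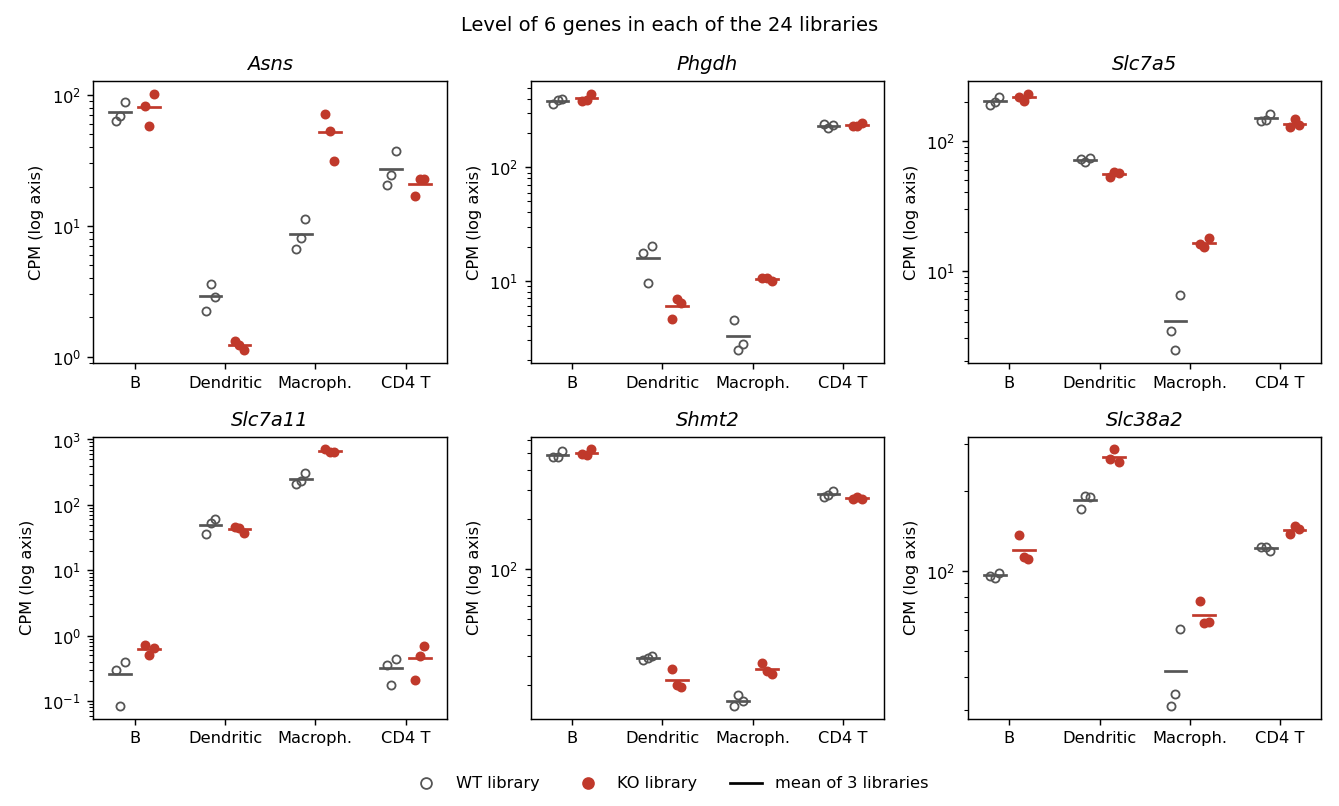
Level of 6 genes (CPM, log axis) in each library of the 4 cell types (x axis); open points are WT libraries, filled points KO libraries and lines the mean of 3. Asns, Phgdh, Slc7a5 and Slc7a11 in macrophages and Slc38a2 in every cell type have all 3 KO points above all 3 WT points, whereas Asns, Phgdh, Slc7a5 and Shmt2 in dendritic cells have them below.

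Of the 7 enzymes tested in dendritic cells, 3 fell and none rose by edgeR or DESeq2 or at an unadjusted p under 0.05. Phgdh fell from 17.6, 9.50 and 20.4 CPM in WT to 4.62, 6.84 and 6.32 CPM in KO (log2 -1.41, SE 0.279, adjusted p = 0.0059). Asns was scarce in these cells, with 2.25, 3.61 and 2.86 CPM in WT and 1.32, 1.23 and 1.12 CPM in KO (log2 -1.23, SE 0.304, adjusted p = 0.016). These levels are 19, 30 and 23 counts in WT and 10, 9 and 8 in KO. Asns thus passed the filter on low counts through its WT libraries alone, and its estimate is no support for a fall. Shmt2 fell from 28.4, 29.1 and 29.95 CPM to 25.1, 20.0 and 19.4 CPM (log2 -0.44, SE 0.117, adjusted p = 0.023). The WT and KO libraries did not overlap for Phgdh and Shmt2, nor for Asns at its few counts. Psat1 (-0.43, adjusted p = 0.25) and Psph (-0.28, adjusted p = 0.37) had estimates below 0, Mthfd2 (0.13) and Aldh18a1 (0.05) above 0, and none of the 4 was called. Pycr1, Cth and Cbs did not pass the filter, and Cbs had no count in any dendritic cell library.

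Transporters of dendritic cells were divided. Slc1a5, the glutamine carrier ASCT2, fell from 64.9, 60.3 and 59.8 CPM in WT to 44.2, 42.5 and 48.3 CPM in KO (log2 -0.45, SE 0.0853, adjusted p = 0.0042). Slc7a5 fell from 71.8, 68.9 and 74.2 CPM to 52.9, 58.0 and 56.3 CPM (log2 -0.36, SE 0.0768, adjusted p = 0.0079). Slc38a2, the sodium-coupled neutral amino acid carrier SNAT2, rose from 170, 191 and 189 CPM to 263, 285 and 255 CPM (log2 0.55, SE 0.0786, adjusted p = 0.00086). The difference between WT and KO was larger than the range within either genotype for each of these carriers. The other 6 transporters were not called, among them Slc7a11 at -0.23 (adjusted p = 0.38), Slc3a2 at -0.12 (adjusted p = 0.31) and Slc7a1 at 0.37 (adjusted p = 0.19).

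Of the 12 synthetases, 11 had estimates below 0 in dendritic cells and 3 of these fell. Cars, for cysteine, went from 48.8, 42.8 and 42.5 CPM in WT to 32.3, 34.9 and 35.2 CPM in KO (log2 -0.39, SE 0.0949, adjusted p = 0.016), with Yars, for tyrosine, at -0.36 (adjusted p = 0.018) and Lars, for leucine, at -0.29 (adjusted p = 0.018). Wars, for tryptophan, went the other way: 152, 154 and 164 CPM in WT and 205, 240 and 249 CPM in KO (log2 0.57, SE 0.0889, adjusted p = 0.0014). Wars is known as an interferon-induced gene as well as an ATF4 target. No regulator among the 8 tested was called by edgeR or DESeq2 or had an unadjusted p under 0.05, their median was 0.01, and Trib3 and Chac1 did not pass the filter.

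With 2 up and 8 down, 10 of the 36 members tested in dendritic cells were called (27.8%), beside 2279 of 10536 genes (21.6%) in either direction, 1286 (12.2%) up and 993 (9.42%) down. Asns, which passed the filter on low counts through its WT libraries, is among the 8. The median member was at -0.21 and the median gene at -0.01. All KO libraries lay below all WT libraries in 15 members and above them in 3, where 41.2% of all genes had no overlap. Without KO replicate 2 the count was 5 (2 up, 3 down), where 1176 of 10695 genes were called. Without WT replicate 1 it was 17 (3 up, 14 down), where 2870 of 10649 genes were. Only 4 members passed a test for more than a 1.2-fold change, as did 905 of 10536 genes.

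Summed markers of other cells also differed between KO and WT dendritic cells. Macrophage markers summed to 53.36 to 64.02 CPM in KO and 70.59 to 173.3 CPM in WT, neutrophil markers to 1.641 to 2.112 and 3.127 to 12.93 CPM, and B cell markers to 11.62 to 21.91 and 5.794 to 10.69 CPM, with WT replicate 3 the highest for macrophage and neutrophil markers. NK cell markers (24.61 to 32.6 and 32.81 to 37.29 CPM) and Pmel, the one melanoma marker detected (0.82 to 1.26 and 1.44 to 2.25 CPM), were lower in KO without overlap. The sum of the dendritic cell markers was higher in KO (14540 to 15300 CPM) than in WT (11120 to 11910 CPM), mostly through Fscn1 (means of 8390 and 5300 CPM), while the means of Flt3 (1570 and 1490), Zbtb46 (174 and 169), Itgax (29.0 and 31.3) and Xcr1 (0.723 and 1.68) differed less in CPM or were lower in KO. The proliferation markers overlapped (237.1 to 245.4 and 231.5 to 259.4 CPM), and the other 4 melanoma markers were at 0. Without WT replicate 3, 8 members were called, 2 up and 6 down, where 1483 of 10649 genes were called. The WT libraries kept in that refit had macrophage sums of 70.59 and 98.15 CPM and neutrophil sums of 3.547 and 3.127 CPM. These still lay above every KO library. The part of the macrophage, neutrophil, B cell, NK cell, melanoma and dendritic cell markers in these changes was not tested.

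Slc38a2 was the member whose change recurred. In B cells it stood at 136, 112 and 111 CPM in KO and 95.6, 94.2 and 98.3 CPM in WT (log2 0.32, SE 0.0737, adjusted p = 0.028), and in T cells at 137, 147 and 144 CPM in KO and 123, 122 and 118 CPM in WT (log2 0.23, SE 0.0451, adjusted p = 0.024). In macrophages it was 77.2, 63.5 and 64.0 CPM in KO and 31.2, 34.6 and 60.7 CPM in WT, with the WT library numbered 3 close to the KO libraries (log2 0.72, SE 0.257, adjusted p = 0.21). Every KO library was therefore above every WT library of its own cell type in all 4 cell types. A test of whether the KO effect on Slc38a2 differed between cell types gave an adjusted p of 0.32. The call in B cells was lost without KO replicate 1 or 2 or WT replicate 1 or 2, and that in T cells without any 1 of the KO libraries or WT replicate 2. Both were also lost with a minimum fold of 1.2 and in the fit of all 24 libraries. Over all 13 alternatives the call held in 6 in B cells and in 7 in T cells. The estimates stayed between 0.22 and 0.37 in B cells and between 0.21 and 0.25 in T cells. In dendritic cells the call held in all 13 alternatives.

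Slc38a2 was the 1 member called of 40 tested in B cells, by edgeR and by DESeq2 alike, where 325 of 10151 genes (3.20%) were called, 212 (2.09%) up and 113 (1.11%) down. The next members by size there were Cbs (1.05, adjusted p = 0.21, at 1.18 and 0.545 CPM) and Cth (0.60, adjusted p = 0.11), the 2 enzymes of transsulfuration, neither of them called. Cbs had 13, 13 and 15 counts in KO and 2, 10 and 6 in WT. It passed the filter on low counts through its KO libraries, so its estimate is no support for a rise. No member was called lower in B cells by either tool, and 1 (Ddit4, -0.24) had an unadjusted p under 0.05. Asns in B cells was at 82.3, 58.0 and 102 CPM in KO and 63.8, 68.8 and 88.2 CPM in WT, Phgdh at 382, 394 and 445 and at 365, 396 and 400 CPM, and Slc7a5 at 216, 204 and 230 and at 190, 200 and 217 CPM. For all 3 genes the genotypes overlapped in B cells, in contrast to both myeloid types.

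In T cells Slc38a2 was likewise 1 call among 39 members tested, where 223 of 10396 genes (2.15%) were called, 140 (1.35%) up and 83 (0.798%) down. Without WT replicate 1 the count there was 5, with 1 up and 4 down, where 598 of 10508 genes were called. Asns in T cells was at 16.8, 22.7 and 23.0 CPM in KO and 20.5, 24.6 and 37.0 CPM in WT (log2 -0.38, adjusted p = 0.52), Phgdh at 231, 230 and 244 and at 240, 225 and 235 CPM (log2 0.02), and Slc7a5 at 127, 146 and 132 and at 142, 146 and 162 CPM (log2 -0.15, adjusted p = 0.24). These genotypes overlapped as well. Of the 39 members, 31 had estimates below 0 in T cells with a median of -0.09, but no member was called lower by edgeR or DESeq2 and 6 had an unadjusted p under 0.05, the nearest to a call being Iars at -0.16 (adjusted p = 0.069). Wars had 0.24 (adjusted p = 0.11).

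The KO effect itself was compared between cell types in a fit of all 24 libraries. It differed across the 4 cell types for 21 of the 41 members (51.2%), where 1548 of 12249 genes (12.6%) did. By role these were 2 of 10 regulators (Atf4, Chac1), 5 of 10 enzymes (Asns, Phgdh, Shmt2, Mthfd2, Aldh18a1), 6 of 9 transporters (Slc7a5, Slc3a2, Slc7a11, Slc7a1, Slc7a3, Slc1a5) and 8 of 12 synthetases (Aars, Cars, Eprs, Gars, Lars, Mars, Wars, Yars). The adjusted p ran from 4.4e-06 for Slc7a5 and 2.1e-05 for Phgdh, through 0.00014 for Shmt2, 0.0002 for Asns and 0.00025 for Slc7a11, to 0.044 for Atf4. Some of these calls rest in part on few counts. Chac1 had 3, 1 and 4 counts in WT macrophages and 1 to 4 in each dendritic cell library. Slc7a3 had 4, 8 and 7 counts in WT macrophages, and Slc7a11 had 1 to 9 in each lymphocyte library. Leaving out 1 library at a time gave 14 to 29 members. The lowest was without KO macrophage replicate 1, where 1174 genes differed, and the highest without WT macrophage replicate 3, where 3619 did.

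The effect in dendritic cells differed from the mean of the other 3 cell types for 11 members, 2 above and 9 below, where 1050 of 12249 genes (8.57%) differed, 547 (4.47%) above and 503 (4.11%) below. This contrast was chosen with earlier results of these data known. Its reference mean includes the macrophage rises, so a difference need not be particular to dendritic cells. For Slc7a5 the means were 55.7 (KO) and 71.6 (WT) CPM in dendritic cells and 16.3 and 4.09 CPM in macrophages. The largest of these differences among members with more than a few counts was that of Phgdh, a log2 effect in dendritic cells minus the mean of the others of -2.01 (adjusted p = 1.7e-05). For Slc7a5 it was -1.01 (adjusted p = 0.00021), for Shmt2 -0.63 (adjusted p = 0.00046) and for Slc1a5 -0.52 (adjusted p = 0.0014), while for Wars it was 0.45 (adjusted p = 0.0032). The effects on Eprs (-0.37), Cars (-0.48), Lars (-0.40) and Yars (-0.36) were also lower in dendritic cells. The difference of Slc7a11 (-1.31, adjusted p = 0.027) draws in part on lymphocytes in which a library held 1 to 9 counts of it. That of Pycr1 (3.16, adjusted p = 0.048) rests on 3, 5 and 4 counts in KO and 0, 1 and 0 in WT dendritic cells, so its size depends on the prior count of the fit. Without KO replicate 2 or WT replicate 1 of the dendritic cells the count was 6, and without KO replicate 3 or WT replicate 3 it was 7. Over all genes these refits called 679, 919, 724 and 667, in that order.

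Atf4 mRNA, from the regulator at the head of the pathway, was called in no cell type. It stood at 459, 440 and 544 CPM in KO and 428, 422 and 501 CPM in WT B cells, and at 372, 383 and 411 and at 449, 362 and 357 CPM in dendritic cells. In macrophages it was 357, 269 and 231 CPM in KO and 181, 210 and 204 CPM in WT, and in T cells 279, 319 and 293 and 308, 347 and 364 CPM. Macrophages were thus the cells in which all KO libraries were above WT, with a log2 estimate of 0.55 and SE of 0.175, while in T cells the estimate was -0.19 (adjusted p = 0.16). Ddit3, which encodes the stress factor CHOP, was at 8.35, 7.98 and 11.6 CPM in KO and 6.91, 8.98 and 11.2 CPM in WT B cells, and at 14.7, 13.5 and 16.3 and at 18.4, 13.7 and 11.8 CPM in dendritic cells. Its macrophage libraries held 10.7, 9.42 and 9.67 CPM in KO and 8.98, 10.8 and 11.5 CPM in WT, and its T cell libraries 6.85, 8.37 and 9.31 and 8.14, 9.93 and 8.15 CPM. The genotypes overlapped in every cell type for Ddit3, and its estimates, between -0.09 and 0.04, changed sign under other settings in all 4. The annotated genes of Ddit3 and Mars overlap at their ends on chromosome 10, and how the counting treated strand is not given in the sources used here.

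Of the 4 members with an 8mer or 7mer site for miR-155 printed above, Slc38a2 was higher in KO as described, and the other 3 did not rise by the test in any cell type. Slc7a1 was at 85.6, 65.7 and 69.5 CPM in KO and 80.7, 68.5 and 75.2 CPM in WT B cells, at 12.9, 12.4 and 11.2 and 6.62, 11.1 and 10.7 CPM in dendritic cells, at 29.7, 21.1 and 15.8 and 7.02, 3.93 and 10.4 CPM in macrophages, and at 108, 110 and 117 and 113, 120 and 133 CPM in T cells. Its KO libraries were clear of WT in the myeloid cells alone. Sars, the synthetase for serine, was at 322, 311 and 358 and 307, 332 and 365 CPM in B cells, 120, 118 and 114 and 145, 122 and 122 CPM in dendritic cells, 197, 179 and 154 and 163, 191 and 144 CPM in macrophages, and 229, 252 and 242 and 245, 262 and 266 CPM in T cells. Its estimates ran from -0.14 to 0.11. Yars was at 183, 170 and 197 and 185, 191 and 204 CPM in B cells, 28.6, 27.1 and 25.8 and 34.6, 35.1 and 35.2 CPM in dendritic cells, 57.7, 50.0 and 45.4 and 40.2, 44.8 and 42.6 CPM in macrophages, and 101, 111 and 99.1 and 111, 119 and 128 CPM in T cells. It was called in dendritic cells, where it fell.

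The KO effect is given here for members with and without the promoter motif. In macrophages the 10 tested members with it had a median of 0.32 and the 18 without it 0.52. In dendritic cells the 9 tested members with the motif had a median of -0.25, with 0 above 0, and the 18 without it -0.05, with 8 above 0. Members with no promoter entry had medians of 0.32 and -0.23 in these cells. No test was made of these medians.

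Other genes of the pathway were listed by role. None of the 14 genes for eIF2alpha kinases and their control was called by edgeR in macrophages (median 0.03), nor any of the other 8 cytosolic synthetases (4 above 0 and 4 below), the 16 other enzymes tested (median 0.06) or the 14 unfolded protein response genes (median -0.35, with 10 below 0). At an unadjusted p under 0.05 these lists had 2 up and 0 down, 0 up and 1 down, 3 up and 1 down, and 1 up and 6 down, and DESeq2 called 2 up, 0, 1 up, and 1 up with 1 down. Among 11 other transporters 1 rose, Slc6a9, which carries glycine, at 6.00, 4.99 and 5.87 CPM in KO and 0.722, 0.655 and 0.715 CPM in WT (log2 3.02, SE 0.228, adjusted p = 0.018). The KO libraries of Slc6a9 were all above WT and close together. Its WT counts were few, however, and it passed the filter on low counts through its KO libraries. That 1 call was 9.09% of the 11 other transporters tested, where 0.885% of all genes were called. Given how Slc6a9 passed the filter, this share is no support for a rise of the list.

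In dendritic cells Ppp1r15a, the phosphatase subunit that reverses eIF2alpha phosphorylation, rose from 274, 251 and 222 CPM in WT to 369, 341 and 351 CPM in KO (log2 0.51, adjusted p = 0.0024), and Eif2ak3, Eif2ak4, Impact and Eif2b2 of the same list fell. Shmt1, the cytosolic counterpart of Shmt2, rose from 6.27, 5.77 and 5.10 CPM to 14.8, 14.9 and 15.03 CPM (log2 1.38, adjusted p = 0.00014), so the cytosolic and mitochondrial enzymes moved in opposite directions. In all, 4 of the 16 other enzymes tested rose, Got1 and Gldc among them, and none of the 16 was called lower by edgeR or DESeq2 (1 at an unadjusted p under 0.05). Kars rose and Vars fell among the other 8 synthetases, Slc7a8 fell among 9 other transporters, and Herpud1 and Calr fell among 14 unfolded protein response genes. Calls made up 35.7% of the eIF2alpha control list, 25% of the enzymes and 25% of the synthetases. They made up 11.1% of the transporters and 14.3% of the unfolded protein response genes. As 21.6% of all genes were called in dendritic cells, most of these shares were near or below that of all genes. In B cells Slc43a1, a carrier of leucine and related amino acids, rose (log2 0.75, adjusted p = 0.0047), as did Edem1 and Creld2 of the unfolded protein response list, whose 14 genes all had estimates above 0. These calls made up 10% and 14.3% of their lists, where 3.20% of all genes were called in B cells. Bcat1, which transaminates branched-chain amino acids, fell in T cells (log2 -0.25, adjusted p = 0.031). It was 1 of 16 other enzymes tested there (6.25%), where 2.15% of all genes were called.

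**Figure D3:**
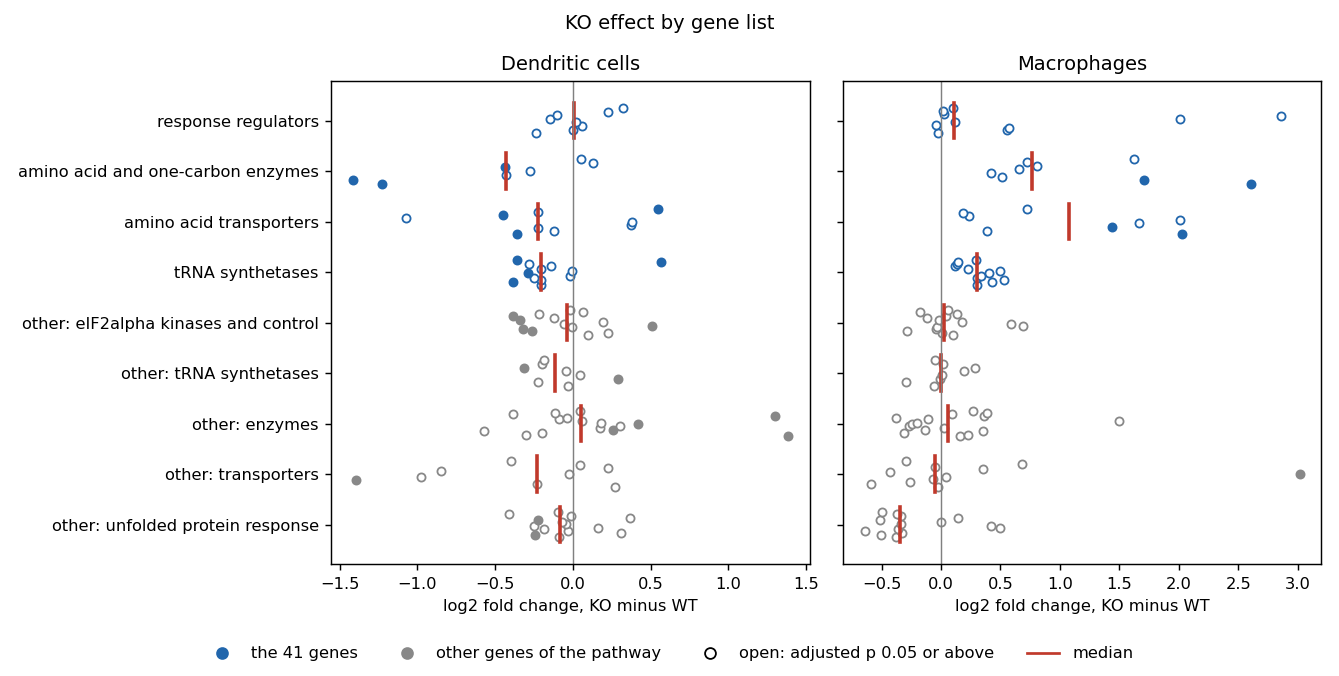
Log2 fold change (KO minus WT, x axis) of each gene tested in dendritic cells and macrophages, by list (y axis); blue points are the 41 genes, grey points other genes of the pathway, open points have an adjusted p of 0.05 or more and red lines are medians. In macrophages the medians of the 41 genes' enzymes (0.76), transporters (1.08) and synthetases (0.30) lie above those of the other lists, and in dendritic cells the same roles lie at -0.43, -0.23 and -0.21. These medians include Cth and Slc7a3 in macrophages and Asns in dendritic cells. Those genes passed the filter on low counts wholly or partly through the genotype where they were higher.

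The WT libraries of the 4 cell types held these genes at different levels. There, 29 of 40 members tested were higher in lymphocytes (the average of B and T cells on the log2 scale) than in myeloid cells (that of dendritic cells and macrophages) and 7 were lower, where 4603 of 11863 genes (38.8%) were higher and 5181 (43.7%) lower, 82.5% in all. All 9 enzymes tested were higher in lymphocytes, with a median of 3.14. Phgdh was 5.37 higher on the log2 scale (SE 0.177, adjusted p = 1.1e-11), with means of 387 CPM in B cells, 233 in T cells, 15.8 in dendritic cells and 3.24 in macrophages. Psat1 (5.19), Pycr1 (4.53), Shmt2 (4.09), Chac1 (3.70) and Slc7a1 (3.52) followed, with Psat1 and Pycr1 in serine and proline synthesis. Synthetases were higher in lymphocytes in 11 of 12 cases with a median of 1.53, and Wars (0.10, adjusted p = 0.10) was the exception. The other 8 synthetases were higher as well, in all 8 cases.

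The members lower in lymphocytes were led by Slc7a11, with means of 0.258 CPM in B cells and 0.325 in T cells against 50.1 in dendritic cells and 250.1 in macrophages (log2 -8.58, SE 0.245, adjusted p = 3.3e-12). Atf3, a stress-induced regulator, followed at -2.36, then Atf5 (-1.72), Slc3a2 (-1.54), Cebpg (-0.87), Sesn2 (-0.51) and Ddit3 (-0.49). Of these 7 members 5 are regulators, and the other two are the subunits of the cystine exchanger.

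Between the lymphocytes, 21 members were higher in WT B cells and 6 higher in WT T cells, where 25.6% and 24.7% of all genes were, 50.3% in all. Slc7a3 had the largest difference, with means of 39.5 CPM in B cells and 3.03 CPM in T cells (log2 3.68, SE 0.272, adjusted p = 1.8e-07). Atf5 (2.17), Pycr1 (1.73), Asns (1.41), Chac1 (1.41) and Slc1a4 (1.09) followed, and 9 of 12 synthetases were also higher in B cells. The members higher in T cells were Ddit4 (-1.45), Atf3 (-1.39), Slc7a1 (-0.71), Slc1a5 (-0.68), Slc38a1 (-0.61) and Wars (-0.56). The arginine carriers thus differed in opposite directions, with Slc7a3 higher in B cells and Slc7a1 higher in T cells.

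Between the myeloid cells, 16 members were higher in WT dendritic cells and 14 in WT macrophages, where 38.1% and 39.4% of all genes were, 77.5% in all. Slc7a5 was at a mean of 71.6 CPM in dendritic cells and 4.09 in macrophages (log2 4.14, SE 0.222, adjusted p = 3.3e-09), and Slc1a4 (2.37), Aldh18a1 (2.34), Phgdh (2.29), Slc38a2 (2.12) and Mthfd2 (1.92) followed. Higher in macrophages were Eif4ebp1 (-3.20), the translation repressor 4E-BP1, then Slc7a11 (-2.32), Asns (-1.58), Atf3 (-1.11) and Slc3a2 (-1.0). Pycr1 was called too, with 0, 1 and 0 counts in dendritic cells and 6, 2 and 5 in macrophages. The partners of Slc3a2 thus differed, with Slc7a5 the higher in dendritic cells and Slc7a11 the higher in macrophages.

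Ordered by mean WT level, B cells were the highest of the 4 cell types for 24 members, T cells for 7, macrophages for 6 and dendritic cells for 4, and for 21, 4, 4 and 4 of these the libraries of the highest cell type did not overlap those of the next. For Atf4 the order was B cells, dendritic cells, T cells, macrophages, and only the last step was free of overlap between neighbours. Levels of different genes were compared per kb of coding sequence. On that scale Atf4 was the most abundant member in WT B cells at 429 ± 42.0 CPM per kb, in T cells at 324 ± 27.2 and in dendritic cells at 371 ± 49.3 (mean ± SD, n = 3). In macrophages Slc3a2 led at 442 ± 17.8 CPM per kb, ahead of Atf4 at 189 ± 14.8 and Slc7a11 at 166 ± 34.0. At the low end, Slc7a11 was at 0.171 ± 0.105 CPM per kb in B cells and 0.215 ± 0.0910 in T cells, and Cbs was at 0.0185 ± 0.0321 in macrophages.

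**Figure D4:**
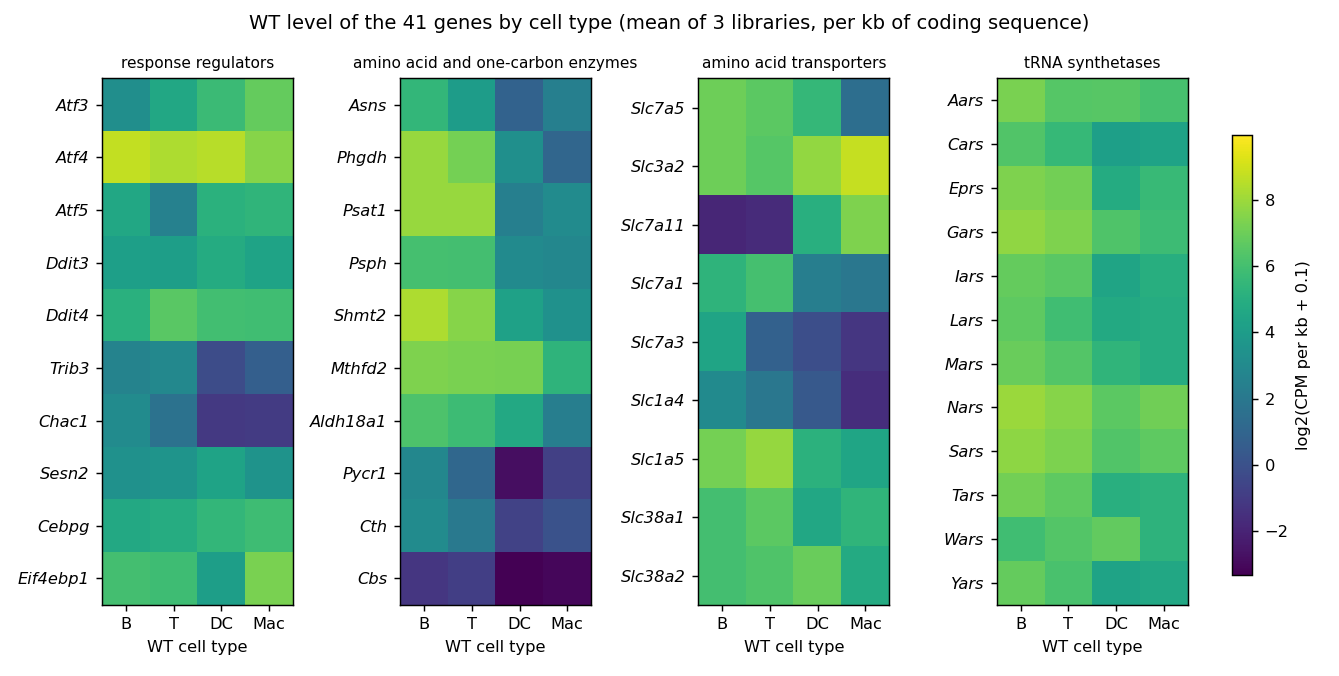
Mean level of each of the 41 genes in the WT libraries of the 4 cell types, as log2 of CPM per kb of coding sequence plus 0.1 (colour), grouped by role. Most enzymes and synthetases are brightest in B and T cells, while Slc7a11 and Slc3a2 are brightest in macrophages.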

How the data were processed

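RNA-seq libraries of 4 cell types and 2 genotypes (3 libraries in each of 8 groups) were analysed from gene-level read counts. The deposited values are whole-number counts per gene symbol made by the authors, who used cutadapt and STAR with mouse build mm9 per the submitters' processing notes. No source used here names the counter, the annotation or the strand setting. Rows that name no gene were left out: those without a feature came to between 51.43% and 61.12% of all counted reads of a library. Groups come from the sample labels. The members, the lists and the contrast of dendritic cells with the other cell types were chosen with earlier results of these data known.

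Each cell type was fitted on its own with edgeR 4.0.16 (R 4.3.3): filterByExpr, trimmed mean of M-values, robust quasi-likelihood fit, two-sided F test and Benjamini-Hochberg adjustment over all genes tested, called under 0.05. Standard errors are the log2 fold change over the square root of F. A fit of all 24 libraries compared the KO effect of one cell type with that of others, and a fit of the 12 WT libraries compared cell types. Summed markers were compared by exact permutation. The marker symbols Emr1 and Igj were replaced by Adgre1 and Jchain, the names in the files. The test was checked on simulated counts. The totals of 7428821 to 14219823 counts limit precision for members under about 1 CPM.

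Named members are all that were called, with per-library values for up to 4 up and 4 down of at least 5 CPM per cell type, for Atf4, Ddit3, Asns, Phgdh and Slc7a5, and for members with a miR-155 site, and the WT comparisons name up to 6 each way. Replicate pairs all differed by more than sampling noise, with chi-square per gene from 2.082 to 160.7. The labels state no pairing, so pairing by number in macrophages is inferred from correlations of deviations. KO replicate 1 reached 0.109 with WT replicate 2, and the 3 same-number correlations were 0.129, 0.309 and 0.384. In B cells they were 0.192, 0.0537 and 0.248, and the block moved calls over all genes from 325 to 1260, so a pairing there is not settled. In dendritic cells and T cells they were of both signs. Alternatives were other normalizations (RLE), filters, DESeq2 1.42.0, a replicate block, a minimum fold of 1.2, the fit of all 24 libraries, and leaving out each library. Leaving out both macrophage libraries numbered 3 was chosen after seeing the data. Coding lengths and 3′ UTRs come from GENCODE M21 (GRCm38) and promoters and miR-155 from RefSeq (GRCm38.p6), matched by symbol and not by the mm9 coordinates. One gene of the other enzymes is not reported here by name.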

Additional observations from a re-analysis of the deposited data

Results flagged for a closer look

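The KO effect differed between the 4 cell types, by edgeR's test of that difference itself, for 21 members. The adjusted p was 4.4e-06 for Slc7a5, 2.1e-05 for Phgdh, 0.00014 for Shmt2, 0.0002 for Asns and 0.00025 for Slc7a11. It was 0.0019 for Eprs, 0.0026 for Slc7a1, 0.004 for Slc1a5, 0.0057 for Mars, 0.0076 for Wars and 0.0088 for Yars. For Lars it was 0.01, for Cars 0.012, for Chac1 0.016, for Slc3a2 0.019 and for Aars 0.024. For Slc7a3 it was 0.031, for Aldh18a1 0.034, for Gars 0.036, for Mthfd2 0.038 and for Atf4 0.044. The values for Chac1, Slc7a3 and Slc7a11 rest in part on groups with few counts.

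The effect in dendritic cells minus the mean effect in the other cell types was past the test's threshold for 11 members. This contrast was chosen with earlier results known, and its reference mean includes the macrophage rises. On the log2 scale it was -2.01 for Phgdh, -1.01 for Slc7a5, -0.633 for Shmt2, -0.518 for Slc1a5 and 0.45 for Wars. It was -0.365 for Eprs, -1.31 for Slc7a11, -0.477 for Cars, -0.397 for Lars and -0.359 for Yars. The value of 3.16 for Pycr1 comes from 0 to 5 counts in each dendritic cell library.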

How the results depend on the processing

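The counts of called members moved as follows, with the main count after each cell type and the calls over all genes after each alternative. In B cells (1 member) 3 were called with the replicate block (1260 of 10151 genes). A minimum fold of 1.2 gave 0 (63 of 10151) and the fit of all 24 libraries 0 (81 of 12249). Leaving out 1 library gave 0 to 2 (141 to 441 genes). In T cells (1) the counts were 3 without a filter (478 of 13778 genes) and 2 with the block (271 of 10396). They were 0 with the minimum fold (20 of 10396), 0 in the 24-library fit (63 of 12249) and 0 to 5 without 1 library (32 to 598 genes). In dendritic cells (10) the minimum fold gave 4 (905 of 10536 genes) and leaving out 1 library 5 to 17 (1176 to 2870 genes). In macrophages (4) the minimum fold gave 1 (21 of 10730 genes), DESeq2 12 (586 of 10730) and the 24-library fit 22 (1755 of 12249). Omission of both libraries numbered 3 gave 21 (1611 of 10736), and leaving out 1 library 0 to 23 (0 to 2746 genes). The dendritic cell effect against the other cell types (11) gave 3 with the minimum fold (351 of 12249 genes). It gave 6 to 14 without 1 library (667 to 1475 genes). The test across the 4 cell types has no minimum-fold version in the tool used. Its count of 21 ran from 14 to 29 without 1 library (1121 to 3619 genes). The replicate block changed no other count by more than 1.5 times. Outside macrophages same-number correlations were -0.236 to 0.248, so there the libraries may share only a number, though in B cells all were above 0. In none of those 3 cell types did every library correlate best with its own number. Over all genes, calls moved from 325 to between 63 and 1260 in B cells, from 223 to between 20 and 598 in T cells, from 2279 to between 905 and 2870 in dendritic cells and from 95 to between 0 and 2746 in macrophages. The median member effect stayed between 0.36 and 0.53 in macrophages, and between -0.21 and -0.14 in dendritic cells, over all alternatives. Of values for single members under the alternatives, 2110 kept direction and side of the threshold, 185 lost and 58 gained a call, and 22 changed sign, none of them a called value. Without 1 library, estimates ran in B cells from -0.0625 to 0.318 (Asns), -0.00192 to 0.176 (Atf4), -0.143 to 0.212 (Ddit3), -0.0759 to 0.0493 (Sars) and -0.145 to 0.0502 (Slc7a1). In dendritic cells they ran from -0.0571 to 0.107 (Atf4, -0.00314 without a filter) and -0.114 to 0.210 (Ddit3), in macrophages from -0.141 to 0.0383 (Ddit3, 0.0518 without both libraries numbered 3), and in T cells from -0.188 to 0.0126 (Ddit3) and -0.0119 to 0.0346 (Phgdh). The cause of these changes was not tested. Members under about 1 CPM, such as Pycr1 and Cbs in myeloid cells, are limited by depth.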
